A study of Mus musculus with 16 samples.

Results

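The NF-kappaB family and the inhibitors that switch it off again were followed through the footpads of AIRmax and AIRmin mice, as 10 genes: the DNA-binding subunits Nfkb1, Nfkb2, Rel and Relb, the IkappaB proteins Nfkbia, Nfkbie, Nfkbiz and Bcl3, and the ubiquitin regulators Tnfaip3 and Birc3. Each gene was read from its brightest probe set, and 9 of the 10 were measured among the 19938 genes of the array. Nfkb1 is not analysed here, since no probe set in the annotation used names it. Each of the other 9 is named by 1 probe set, and probe sets differ in brightness for reasons other than RNA amount, so levels are compared between groups and never between genes.

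AIRmax and AIRmin are outbred mouse lines, bred from the same 8 inbred founder strains by selection for a maximal or a minimal acute inflammatory reaction, and AIRmax mice are the line susceptible to arthritis after pristane. The arrays form 4 groups of 4: AIRmax pristane, AIRmax control, AIRmin pristane and AIRmin control, each with 2 males and 2 females aged 2 to 4 months by the labels. Pristane, a mineral oil, was injected into the peritoneum as 2 doses of 0.5 ml, 60 days apart. Pristane footpads were taken at day 160 and control footpads at day 0, counted from the second injection, so pristane and time cannot be told apart. The age label is the same for day 0 and day 160, so it does not show that the groups had equal ages when sampled. The sources used here do not state whether the control mice had received pristane. The methods call the 4 arrays of a group biological replicates. RNA of whole footpads was hybridized to Mouse Gene 1.0 ST arrays, and in such bulk RNA a change in the number of cells of a type and a change in RNA per cell cannot be told apart.

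NF-kappaB proteins are transcription factors that bind DNA as dimers and wait in the cytoplasm of resting cells, held by IkappaB proteins. Cytokines of the TNF and interleukin-1 families and microbial products set off kinases that mark IkappaB for destruction, the dimers enter the nucleus, and among the genes they switch on are their own inhibitors and several subunits. The RNA of these feedback genes is therefore a common readout of the pathway in inflamed joints, although RNA says nothing direct about the dimers in the nucleus.

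Promoters of these genes are shown because NF-kappaB itself is known to bind several of them, and the letters it prefers can be looked for in the sequence. RefSeq promoter windows on GRCm38.p6 were matched for 7 of the 10 genes (10 windows), and the 250 bases before each start site were searched on both strands. The NF-kappaB consensus, a 10-base pattern with degenerate positions, was found in 7 windows of 5 genes, Nfkb2, Rel, Nfkbia, Nfkbie and Tnfaip3. Nfkb2 has a match in each of its 3 windows, the second and the third of which overlap. The consensus occurs in 7.25% of all 32851 windows of that length. The windows of Bcl3 and Birc3 and the first of the 2 windows of Tnfaip3 hold no such letters. Nfkb1, Relb and Nfkbiz were not in the promoter table. In the sequences below capitals mark the consensus matches on either strand, and overlapping matches run together. They read 5′ to 3′ on the strand of the gene, with Nfkb2 (the first of 3 windows) at chr19:46304487-46304736 on the plus strand, Rel at chr11:23770970-23771219 on the minus strand, Nfkbia at chr12:55492648-55492897 on the minus strand, Nfkbie at chr17:45555450-45555699 on the plus strand and Tnfaip3 (the second window) at chr10:19015411-19015660 on the minus strand.
Nfkb2: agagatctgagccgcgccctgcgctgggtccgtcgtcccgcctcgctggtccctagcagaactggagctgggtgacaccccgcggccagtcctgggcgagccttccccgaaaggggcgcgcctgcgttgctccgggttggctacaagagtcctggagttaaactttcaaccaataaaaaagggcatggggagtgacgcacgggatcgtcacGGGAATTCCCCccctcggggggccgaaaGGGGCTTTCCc
Rel: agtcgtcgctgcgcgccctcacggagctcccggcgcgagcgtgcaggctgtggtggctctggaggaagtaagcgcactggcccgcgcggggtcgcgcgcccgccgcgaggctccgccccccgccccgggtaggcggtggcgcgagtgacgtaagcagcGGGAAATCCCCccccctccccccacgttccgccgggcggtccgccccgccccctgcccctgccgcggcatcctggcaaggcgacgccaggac
Nfkbia: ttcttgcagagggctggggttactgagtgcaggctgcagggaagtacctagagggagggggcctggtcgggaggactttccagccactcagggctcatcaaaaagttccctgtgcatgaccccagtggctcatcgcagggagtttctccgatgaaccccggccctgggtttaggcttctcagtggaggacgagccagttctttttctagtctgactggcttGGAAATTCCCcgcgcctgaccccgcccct
Nfkbie: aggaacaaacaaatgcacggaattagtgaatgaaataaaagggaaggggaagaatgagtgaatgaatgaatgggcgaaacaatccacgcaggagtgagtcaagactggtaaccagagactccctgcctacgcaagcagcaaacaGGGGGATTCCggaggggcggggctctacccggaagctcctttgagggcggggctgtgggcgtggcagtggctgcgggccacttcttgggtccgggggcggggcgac
Tnfaip3: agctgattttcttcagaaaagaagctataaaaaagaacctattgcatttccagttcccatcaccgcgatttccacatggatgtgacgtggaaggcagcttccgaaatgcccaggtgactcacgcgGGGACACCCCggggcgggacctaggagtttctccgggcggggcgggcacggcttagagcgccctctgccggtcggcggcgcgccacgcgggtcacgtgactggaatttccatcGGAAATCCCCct
In Nfkb2 one of the marked stretches ends 2 bases before the start site, and in Nfkbia the match lies 29 to 20 bases before it. Such a match is a description of letters and does not show that a factor was bound in these footpads.

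All 9 genes gave signals well above those of absent transcripts. Xist in males and Kdm5d, Eif2s3y and Uty in females, which should be silent, gave 32 values between 2.04 and 4.32 on the log2 scale, and the lowest signal of any of the 9 genes on any array was 5.41. These 4 genes also separated the labelled sexes on all 16 arrays, whose medians lay between 5.435 and 5.53. On 4 arrays a score of 6 granulocyte precursor genes stood apart: 109 and 112 of AIRmax pristane (2.10 each), 108 of AIRmax control (2.18) and 118 of AIRmin pristane (1.45). A score is the mean log2 deviation of the genes of a list from their means over the 16 arrays. Where leaving out these 4 arrays moved a difference substantially, the value without them is given as well. Only arrays 110 and 111 then remain in AIRmax pristane, so calls made without them rest on few arrays. No gene of the macrophage, neutrophil, muscle, skin, fat, endothelial, fibroblast or lymphocyte marker lists lay at the absent level in all 4 groups.

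In AIRmax footpads all 9 genes were brighter after pristane than at day 0, as were 55.7% of all genes, and none of the 9 differences passed the test over all genes. The largest were those of Bcl3 (1.94-fold) and Nfkbiz (1.84-fold), followed by Nfkbia (1.60-fold) and Nfkb2 (1.48-fold). In AIRmin footpads the pristane and control arrays overlapped for each of the 9. The AIRmax pristane group was the brightest of the 4 groups for each of the 9 genes, and Tnfaip3 was the gene for which the lines differed past the test. The plot of the signals on each array shows these levels gene by gene.

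**Figure D1:**
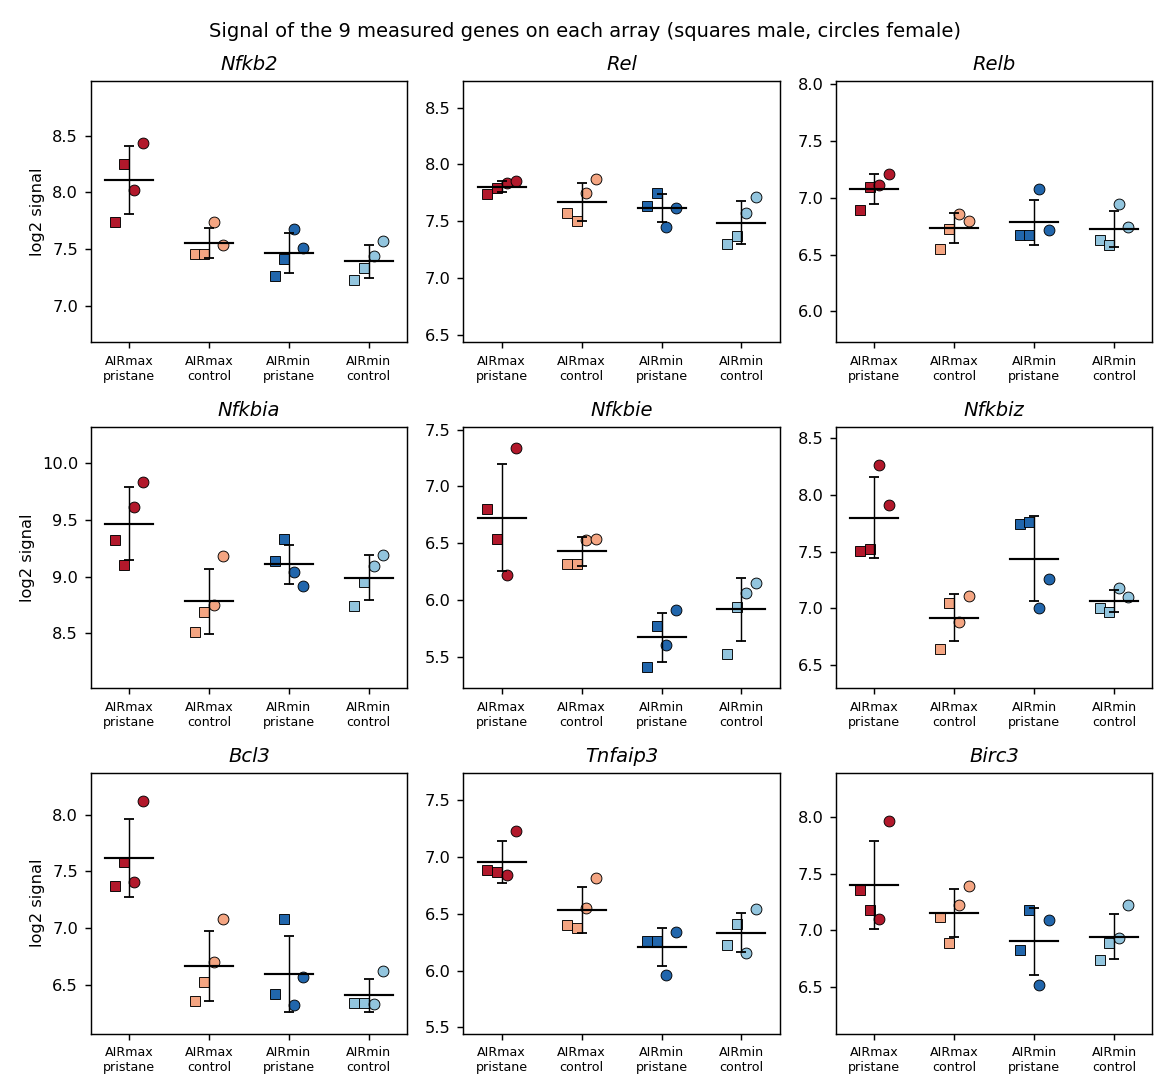
Log2 signal of the 9 measured NF-kappaB genes on the vertical axes, with the 16 arrays arranged by group along the horizontal axes. Each symbol is 1 array (square for a male, circle for a female), the long bar is the mean of the 4 arrays and the error bar their SD. The mean of AIRmax pristane footpads is the highest for every gene, with 7.62 for Bcl3 and 6.96 for Tnfaip3, and Nfkbie is dimmer in both AIRmin groups.

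The DNA-binding subunits differed in how far apart the groups lay. Nfkb2 encodes p100, the precursor of the p52 subunit of the alternative pathway, which also acts as an inhibitor before it is processed. Its log2 signal was 7.74, 8.25, 8.02 and 8.43 in AIRmax pristane footpads, against 7.46, 7.46, 7.74 and 7.54 in AIRmax control footpads. In AIRmin it was 7.26, 7.41, 7.68 and 7.51 after pristane, against 7.23, 7.33, 7.44 and 7.57 in controls. The dimmest AIRmax pristane array, 109, lay above the brightest control array, 107, by less than the second decimal, while the 2 AIRmin groups overlapped widely. The log2 difference was 0.56 in AIRmax (standard error 0.15, adjusted p = 0.16 from limma) and 0.07 in AIRmin (0.12, adjusted p = 0.848). Between the pristane groups AIRmax exceeded AIRmin by 0.65 (standard error 0.16, adjusted p = 0.0817), with no overlap of arrays.

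Relb, the partner of p52 in the alternative pathway, had signals of 6.89, 7.10, 7.11 and 7.21 in AIRmax pristane footpads, against 6.55, 6.73, 6.86 and 6.80 in AIRmax control footpads. The AIRmax groups did not overlap, although the gap between them was narrow, and the difference was 0.34 (standard error 0.11, adjusted p = 0.208). In AIRmin the signals were 6.67, 6.67, 7.08 and 6.72 after pristane, against 6.63, 6.59, 6.95 and 6.74 in controls, a difference of 0.06 (adjusted p = 0.899). Array 119 stood alone in the AIRmin pristane group, and without it the difference was -0.04. Without the precursor-rich arrays it was 0.10 (adjusted p = 0.797). Relb and Bcl3 both lie on chromosome 7 in GRCm38.p6, with 10 protein-coding genes between them.

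Rel, which encodes c-Rel, the subunit known best from lymphocytes and myeloid cells, had the smallest AIRmax difference of the 9. Its 4 AIRmax pristane signals lay close together, at 7.74, 7.79, 7.84 and 7.85, against 7.57, 7.5, 7.75 and 7.87 in AIRmax control footpads. The AIRmin signals were 7.63, 7.75, 7.45 and 7.62 after pristane, against 7.30, 7.37, 7.57 and 7.71 in controls. Pristane and control arrays overlapped in both lines, and the differences were of the same size, 0.13 in AIRmax (95% confidence interval -0.10 to 0.36, adjusted p = 0.591) and 0.12 in AIRmin (-0.13 to 0.38, adjusted p = 0.716). Without the precursor-rich arrays they were 0.21 (adjusted p = 0.336) and 0.08 (adjusted p = 0.818).

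Among the IkappaB proteins, Bcl3 showed the largest difference in AIRmax. Bcl3 is a nuclear IkappaB protein that binds p50 and p52 homodimers and can switch genes on or off with them. Its signals were 7.37, 7.58, 7.41 and 8.12 in AIRmax pristane footpads, against 6.36, 6.53, 6.70 and 7.08 in AIRmax control footpads. In AIRmin they were 6.42, 7.08, 6.32 and 6.57 after pristane, against 6.34, 6.34, 6.33 and 6.62 in controls. All 4 AIRmax pristane arrays were above the other 12, and the brightest arrays of the other groups were 108 and 118, 2 of the 4 arrays rich in granulocyte precursor signal. The AIRmax difference was 0.95 (1.94-fold, standard error 0.20, adjusted p = 0.0986), and that in AIRmin was 0.19 (standard error 0.16, adjusted p = 0.689). AIRmax pristane exceeded AIRmin pristane footpads by 1.02 (2.03-fold, standard error 0.21, adjusted p = 0.0531). Without the 4 precursor-rich arrays these differences were 0.97 in AIRmax (adjusted p = 0.024), 0.03 in AIRmin (adjusted p = 0.928) and 1.06 between the pristane groups (adjusted p = 0.0315). Bcl3 then passed in AIRmax and between the lines, with only arrays 110 and 111 left in AIRmax pristane. The study lists Bcl3 among its genes from these same arrays, so its difference is not independent evidence for the family.

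Nfkbiz encodes IkappaB-zeta, a nuclear cofactor that is itself induced by interleukin-1 and Toll-like receptors and is needed for a later wave of genes. Its signals were 7.51, 7.52, 8.26 and 7.91 in AIRmax pristane footpads, against 6.64, 7.05, 6.88 and 7.11 in AIRmax control footpads. In AIRmin the 4 pristane arrays split by sex: the males had 7.74 and 7.76 and the females 7.0 and 7.26, against 7.0, 6.97, 7.18 and 7.10 in controls. Nfkbiz was thus the gene with the largest AIRmin difference of the 9, and in AIRmax the groups did not overlap. The difference was 0.88 in AIRmax (1.84-fold, standard error 0.18, adjusted p = 0.0983) and 0.38 in AIRmin (standard error 0.17, adjusted p = 0.398). AIRmin pristane males were brighter than AIRmax pristane males, and the pristane groups overlapped, with a difference of 0.36 (95% confidence interval -0.15 to 0.86, adjusted p = 0.429). This difference was 0.55 without the precursor-rich arrays (adjusted p = 0.472).

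Nfkbia encodes IkappaB-alpha, the inhibitor that is rebuilt first after NF-kappaB has acted. Its signals were 9.32, 9.10, 9.61 and 9.83 in AIRmax pristane footpads, against 8.51, 8.69, 8.75 and 9.18 in AIRmax control footpads. In AIRmin they were 9.14, 9.33, 9.04 and 8.92 after pristane, against 8.74, 8.95, 9.09 and 9.19 in controls. The precursor-rich array 108 was the only AIRmax control array to reach the pristane range. The differences were 0.68 in AIRmax (1.60-fold, standard error 0.19, adjusted p = 0.171), 0.12 in AIRmin (adjusted p = 0.76) and 0.36 between the pristane groups (adjusted p = 0.288). The AIRmin difference was 0.04 without the precursor-rich arrays (adjusted p = 0.909).

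Nfkbie encodes IkappaB-epsilon, an inhibitor that dampens NF-kappaB later than IkappaB-alpha does, and it was the gene for which the arrays of the lines already did not overlap at day 0. The signals were 6.80, 6.54, 6.22 and 7.34 in AIRmax pristane footpads, against 5.41, 5.77, 5.60 and 5.91 in AIRmin pristane footpads. In controls they were 6.32, 6.32, 6.53 and 6.54 in AIRmax, against 5.52, 5.94, 6.06 and 6.15 in AIRmin. Every AIRmax array was above every AIRmin array at both times. AIRmax exceeded AIRmin by 1.05 after pristane (2.07-fold, standard error 0.22, adjusted p = 0.058) and by 0.51 at day 0 (standard error 0.14, adjusted p = 0.193). Within the lines pristane and control arrays overlapped, with a difference of 0.30 in AIRmax (adjusted p = 0.551) and -0.24 in AIRmin (adjusted p = 0.576), and the AIRmax difference was -0.01 without the 4 precursor-rich arrays. The difference between the pristane groups was then 0.74 (adjusted p = 0.15).

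Of the ubiquitin regulators, Tnfaip3 passed the test between the lines. It encodes A20, an enzyme that edits ubiquitin chains on signalling proteins below the TNF receptor and Toll-like receptors and so ends NF-kappaB signalling. Its signals were 6.89, 6.87, 6.84 and 7.23 in AIRmax pristane footpads, against 6.26, 6.26, 5.96 and 6.34 in AIRmin pristane footpads. In controls they were 6.40, 6.38, 6.55 and 6.82 in AIRmax, against 6.23, 6.41, 6.16 and 6.54 in AIRmin. The 4 AIRmax pristane arrays were above all 12 others, 3 of them within a narrow range and array 112 apart. Tnfaip3 was higher in AIRmax pristane than in AIRmin pristane footpads by 0.75 (1.69-fold, standard error 0.13, adjusted p = 0.0329). This call was close to its threshold: without any 1 of the arrays 109, 111, 112, 117, 119 and 120 the difference was 0.66 to 0.80 and the adjusted p lay between 0.0562 and 0.117. It was 0.67 without the 4 precursor-rich arrays (adjusted p = 0.13) and 0.75 with sex as a covariate (adjusted p = 0.0527). Against AIRmax control footpads the difference was 0.42 (standard error 0.13, adjusted p = 0.212), and in AIRmin it was -0.13 (adjusted p = 0.715).

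Birc3 encodes cIAP2, a ubiquitin ligase of the TNF receptor complex that also restrains the alternative pathway. Its signals were 7.36, 7.18, 7.10 and 7.96 in AIRmax pristane footpads, against 7.12, 6.89, 7.22 and 7.39 in AIRmax control footpads. In AIRmin they were 6.83, 7.18, 6.52 and 7.09 after pristane, against 6.74, 6.89, 6.93 and 7.22 in controls. A single array, 112, lay outside the range of AIRmax controls. The difference was 0.25 in AIRmax (95% confidence interval -0.19 to 0.69, adjusted p = 0.59), -0.04 in AIRmin (adjusted p = 0.955) and 0.50 between the pristane groups (adjusted p = 0.248). Without the 4 precursor-rich arrays, of which 112 is one, it was 0.07 in AIRmax (adjusted p = 0.784), -0.13 in AIRmin (adjusted p = 0.759) and 0.33 between the pristane groups (adjusted p = 0.543).

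Counted over the family, pristane in AIRmax gave 0 calls of 9 by limma, where 0.281% of all genes were called. SAM, the test the study used, was run here on the deposited values without the study's standardization. It called Nfkbiz and Bcl3, both higher, with 3.40% of all genes in either direction and 0.838% higher. At an unadjusted p under 0.05, 6 of the 9 genes were higher, against 7.54% of all genes. The AIRmax groups did not overlap for 5 genes, Nfkb2, Relb, Nfkbiz, Bcl3 and Tnfaip3, against 5.09% of all genes that were higher without overlap. The median log2 difference of the 9 genes was 0.42, while that of all genes was 0.03. The number called was 2 with all 16 arrays in 1 fit (Nfkbiz and Bcl3, with 1.70% of all genes) and 1 without the precursor-rich arrays (Bcl3, with 2.14%).

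In AIRmin footpads pristane gave 0 calls of 9 by limma, which called 0% of all genes, and 0 by SAM, which called 1.95%. At an unadjusted p under 0.05 only Nfkbiz was higher, where 5.12% of all genes were. The pristane and control arrays overlapped for all 9 genes, while 3.19% of all genes were higher and 4.32% lower without overlap. The median difference was 0.07, against 0.02 for all genes, and 6 of 9 differences were above 0, against 54.7% of all genes.

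Between the pristane footpads of the lines limma called 1 of 9 genes higher in AIRmax, Tnfaip3, where it called 0.853% of all genes higher. SAM called Nfkb2, Nfkbie, Bcl3 and Tnfaip3, all higher, with 4.85% of all genes in either direction and 2.47% higher. These 4 genes did not overlap between the lines, against 5.04% of all genes higher without overlap, and 6 of 9 were higher at an unadjusted p under 0.05, against 8.77% of all genes. All 9 differences were above 0, against 49.1% of all genes, and their median was 0.50, against -0.01 for all genes. With all 16 arrays in 1 fit the same 4 genes were called as by SAM (7.62% of all genes). Without the precursor-rich arrays Bcl3 alone of the 9 was called by limma (0.672% of all genes), and Tnfaip3 was not. This comparison uses the same AIRmax pristane arrays as the comparison within AIRmax, so the high values of these arrays enter both. At day 0 AIRmax control exceeded AIRmin control footpads for 7 of 9 genes (43.2% of all genes), the median difference was 0.18, limma and SAM called 0 (0.0802% and 1.29% of all genes), and Nfkbie alone did not overlap (5.39% of all genes) and alone had an unadjusted p under 0.05 (8.38%). The lowest and highest of the other 8 differences were -0.21 for Nfkbia and 0.26 for Bcl3. Without the precursor-rich array 108 of the AIRmax controls these were -0.34 and 0.12, and Tnfaip3 differed by 0.11 instead of 0.20 and Birc3 by 0.13 instead of 0.21. The precursor scores of the control groups did not overlap even without array 108, with AIRmax the higher. The part of this in the day 0 differences was not tested.

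The pristane response itself was compared between the lines as the AIRmax difference minus the AIRmin difference. All 9 values were above 0, where 51.3% of all genes were, and their median was 0.50, against 0.01 over all genes. The largest was 0.76 for Bcl3 (95% confidence interval 0.18 to 1.34, adjusted p = 0.435), followed by 0.57 for Nfkbia (0.06 to 1.07, adjusted p = 0.543), 0.55 for Tnfaip3 (0.17 to 0.94, adjusted p = 0.36) and 0.54 for Nfkbie (-0.05 to 1.13, adjusted p = 0.665). The value for Rel was 0.01 (-0.31 to 0.33). None of the 9 passed over all genes, where limma called 0.171%, and 4 had an unadjusted p under 0.05, against 5.39% of all genes in that direction. A stronger response in AIRmax was therefore not shown for any single gene of the family by this test. Without the precursor-rich arrays, which leaves only arrays 110 and 111 in AIRmax pristane, 1 gene passed. It was Bcl3, with 0.94 (adjusted p = 0.0465), where 0.421% of all genes passed. Nfkbie then had 0.27 (adjusted p = 0.758), Nfkbiz 0.76 against 0.50 with all arrays, and Rel 0.13. With the muscle score as a covariate the values were lower for Bcl3 (0.51), Tnfaip3 (0.36), Nfkbia (0.21), Nfkbiz (0.15 against 0.50) and Birc3 (0.03 against 0.28), and none was called. Limma then called 8 of all 19938 genes higher and 0 lower, against 34 and 0 without the covariate.

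**Figure D2:**
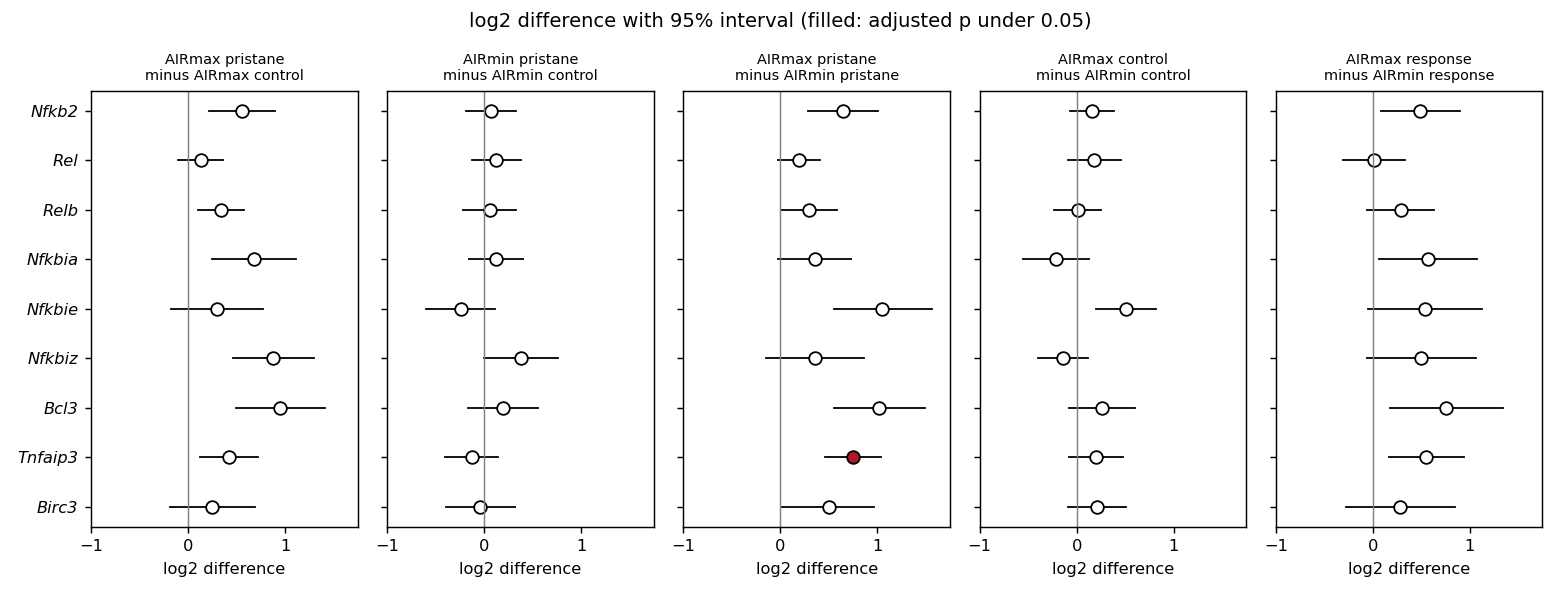
Log2 difference (horizontal axis) of each measured gene (vertical axis) with its 95% confidence interval from limma, for the 5 comparisons from left to right; a filled point has an adjusted p under 0.05. The one filled point is Tnfaip3 between the pristane groups, at 0.75, and all 9 points of the last panel are at or above 0.01.

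The 9 genes tended to be bright on the same mice. In the AIRmax pristane group array 112 was the brightest for 8 of 9 genes. Array 108 was the brightest of AIRmax control for 7 and array 116 of AIRmin control for 7, and in AIRmin pristane array 118 was the brightest for 5. Arrays 112, 108 and 118 are 3 of the 4 precursor-rich arrays, but the fourth, 109, was the dimmest of its group for 5 genes and the brightest for none. Precursor signal and NF-kappaB signal therefore did not move together on every array. Arrays 112, 108 and 116 are from females, and 109, 105 and 113, the dimmest of the same groups for 5, 6 and 5 genes, from males. In AIRmin pristane the brightest array, 118, is from a male and the dimmest, 119 (5 genes), from a female. Arrays 108 and 116 had the lowest muscle score of their groups (-0.28 and -0.64), while in AIRmax pristane 111 did (-1.67). The part of sex or muscle in this order was not tested. Over the 36 pairs of genes the median correlation of deviations from the group means was 0.45, with 31 pairs above 0. This is a description over 16 arrays, in which the genes of a pair share the array. The tightest pair in this sense was Tnfaip3 and Birc3, with r = 0.861. The brightest arrays and the pair correlations were not counted over all genes, so they are not shown to be particular to these 9.

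**Figure D3:**
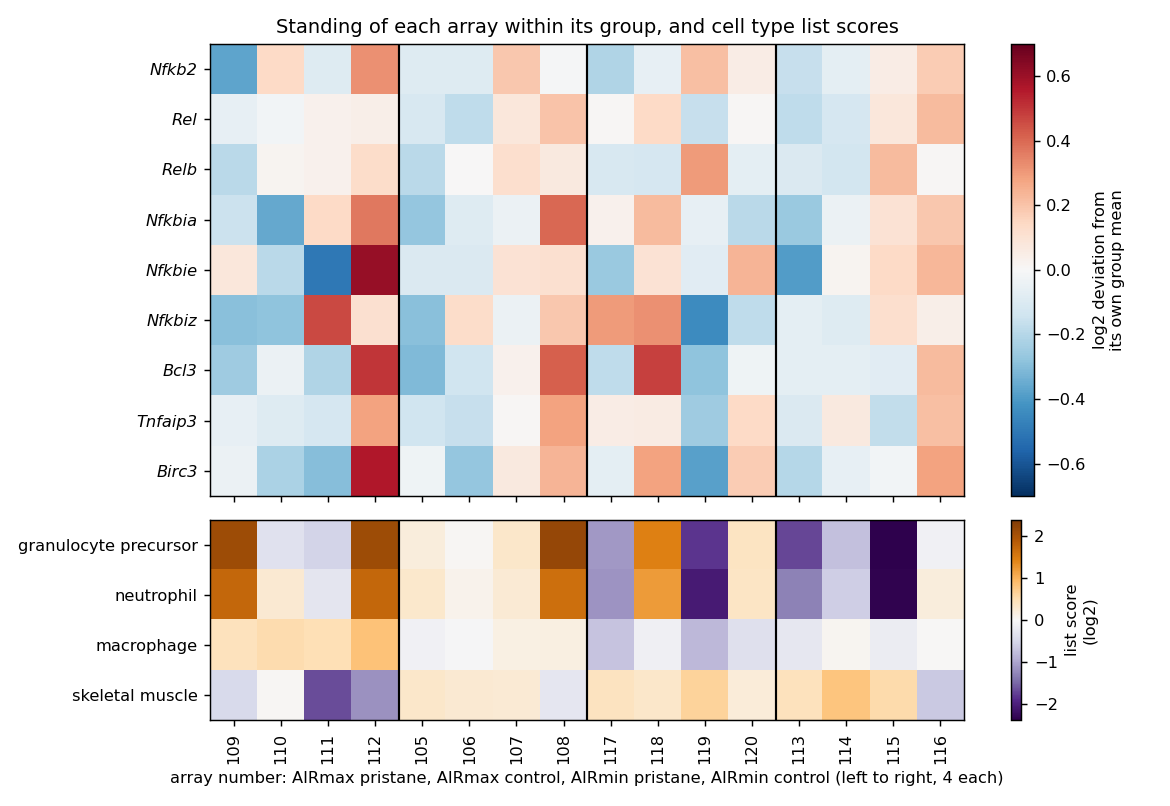
Upper panel: log2 deviation of each gene (vertical axis) from its own group mean on each array (horizontal axis, 4 arrays per group between the lines). Lower panel: score of 4 cell type lists on the same arrays, in log2 units. Array 112 is above its group mean for all 9 genes, and array 109, with an equal precursor score of 2.10, is below it for 8.

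Cell type signals moved with the comparisons. The score of 21 macrophage and monocyte genes lay between 0.43 and 0.83 in AIRmax pristane and between -0.11 and 0.16 in AIRmax control footpads. Limma called 3 of the 21 genes higher in AIRmax after pristane, against 0.140% of all genes, and none lower. The macrophage score lay between -0.82 and -0.12 in AIRmin pristane and between -0.25 and 0.04 in AIRmin control footpads. Limma called none of the 21 in AIRmin. At an unadjusted p under 0.05, 13 of them were lower after pristane and 0 higher, where 7.27% of all genes were lower. SAM called 4 lower, with 1.72% of all genes. Between the pristane groups limma called 6 of the 21 macrophage genes higher in AIRmax, against 0.853% of all genes, and none lower. The score of 22 skeletal muscle genes lay between -1.67 and 0.03 in AIRmax pristane, -0.28 and 0.33 in AIRmax control, 0.22 and 0.63 in AIRmin pristane and -0.64 and 0.80 in AIRmin control footpads. The 13 measured neutrophil genes scattered within every group, from -0.30 to 1.74 in AIRmax pristane, 0.08 to 1.64 in AIRmax control, -2.08 to 1.21 in AIRmin pristane and -2.36 to 0.20 in AIRmin control footpads, and limma called none in any of the 5 comparisons, nor did SAM. At an unadjusted p under 0.05, 11 of the 13 were higher in AIRmax than in AIRmin control footpads, against 8.38% of all genes. The score of the 6 granulocyte precursor genes lay between 0.02 and 2.18 in AIRmax control and between -2.37 and -0.11 in AIRmin control footpads. All 6 were higher in AIRmax controls at an unadjusted p under 0.05, while limma and SAM called none. After pristane the precursor scores of the lines overlapped, from -0.53 to 2.10 in AIRmax and from -1.82 to 1.45 in AIRmin. The scores of 9 B cell genes lay between -0.89 and -0.34 in AIRmax pristane against 0.30 and 1.19 in AIRmax control footpads, and between -0.84 and -0.27 in AIRmin pristane against 0.15 and 0.78 in AIRmin control footpads. The score of 10 fibroblast genes lay between 0.10 and 0.52 in AIRmax pristane, -0.22 and 0.22 in AIRmax control, -0.89 and -0.25 in AIRmin pristane and 0.05 and 0.29 in AIRmin control footpads. Limma called 3 of the 10 higher in AIRmax than in AIRmin after pristane, against 0.853% of all genes. The score of 9 adipocyte genes lay between -1.03 and -0.08 in AIRmax pristane, -0.01 and 0.78 in AIRmax control, -0.72 and 0.25 in AIRmin pristane and 0.16 and 0.85 in AIRmin control footpads. That of 9 T cell genes lay between -0.25 and 0.02 in AIRmax pristane, 0.14 and 0.58 in AIRmax control, -0.32 and 0.06 in AIRmin pristane and -0.13 and 0.09 in AIRmin control footpads. The AIRmax pristane arrays thus did not overlap AIRmax controls in macrophage, B cell, T cell and adipocyte scores, nor AIRmin pristane arrays in macrophage, muscle and fibroblast scores. The keratinocyte and endothelial scores overlapped in these 2 comparisons. Within AIRmin the pristane and control arrays did not overlap in B cell and fibroblast scores, both lower after pristane. The part of these cell types in the NF-kappaB differences was not tested. With the muscle score as a covariate, which itself differs between the groups, the difference of Tnfaip3 between the pristane groups was 0.63 (adjusted p = 0.932), that of Bcl3 0.87 (adjusted p = 0.943), that of Birc3 0.30 (adjusted p = 0.951), and those of Nfkbia and Nfkbiz turned to -0.06 and -0.23. Within AIRmax the same covariate gave 0.44 for Nfkbiz (adjusted p = 0.653, against 0.88 without it), 0.26 for Nfkbia (adjusted p = 0.772, against 0.68), 0.11 for Birc3 and 0.03 for Rel, while Bcl3 stood at 0.76 (adjusted p = 0.653) and Nfkb2 at 0.53 (adjusted p = 0.657).

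Upstream of the family, 71 of 80 listed genes were measured: 11 ligands, 14 receptors, 21 adaptors, 6 kinases, 4 other subunits or IkappaB proteins and 15 other brakes of the pathway. After pristane limma called none of them in AIRmax or in AIRmin. At an unadjusted p under 0.05 there were 18 of 71 higher and 3 lower in AIRmax, where 7.54% of all genes were higher and 6.90% lower, and 8 higher and 3 lower in AIRmin, where 5.12% were higher and 7.27% lower. SAM called 5 higher and 2 lower in AIRmax (0.838% and 2.56% of all genes) and 1 higher in AIRmin (0.231%). Limma also called none between the control groups (0.0802% of all genes), nor for the difference of the responses (0.171%). At an unadjusted p under 0.05, 13 of 71 were higher and 2 lower in AIRmax than in AIRmin control footpads. Of all 19938 genes 8.38% were higher there, and 3345 differed in either direction. Between the pristane groups limma called 4 higher and 1 lower in AIRmax, where it called 0.853% of all genes higher and 0.507% lower. The interleukin-1 genes parted: Il1b, the main secreted form, averaged 7.96 ± 0.81 in AIRmax pristane against 5.79 ± 0.61 in AIRmin pristane footpads (SD, n = 4 each), higher by 2.18 (adjusted p = 0.0431). Il1a, the form that skin cells keep in store, averaged 4.52 ± 0.06 in AIRmax pristane against 5.28 ± 0.19 in AIRmin pristane footpads, a difference of -0.77 (adjusted p = 0.0243) with AIRmax signals close to the level of absent transcripts.

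Both receptors that passed are found on myeloid cells. The type 2 TNF receptor gene Tnfrsf1b had signals of 8.81, 8.78, 9.19 and 9.19 in AIRmax pristane footpads, against 6.93, 7.94, 6.67 and 7.52 in AIRmin pristane footpads, higher by 1.73 (adjusted p = 0.0247). Tlr2, the receptor of bacterial lipoproteins, had 8.83, 8.56, 8.67 and 9.47 in AIRmax pristane, against 6.84, 7.71, 6.71 and 7.35 in AIRmin pristane footpads, also higher by 1.73 (adjusted p = 0.0247). Traf1, an adaptor of TNF receptors that NF-kappaB induces, had 4.90, 4.84, 5.0 and 5.28 in AIRmax pristane, against 4.20, 4.17, 4.20 and 4.39 in AIRmin pristane footpads, where it is not shown to exceed absent transcripts, so that its difference of 0.76 (adjusted p = 0.0273) is not exact. For these 3 genes the lines did not overlap after pristane. Within AIRmax the differences were 0.81 for Tnfrsf1b (adjusted p = 0.126), 1.28 for Tlr2 (adjusted p = 0.078) and 0.70 for Traf1 (adjusted p = 0.0576). The AIRmax control signals of Traf1, from 4.16 to 4.40, were also in or near the range of absent transcripts, so its 0.70 is not exact either.

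No kinase, other subunit or other brake was called by limma between the pristane groups. Of the kinases the smallest p between the pristane groups belonged to Ikbke, a kinase related to the IkappaB kinases, with a difference of 0.72 (adjusted p = 0.105). Among the other IkappaB proteins it was Nfkbid, a nuclear one, with 0.59 (adjusted p = 0.118). One brake had differences of similar size in both lines. Zc3h12a encodes Regnase-1, which degrades the messengers of inflammatory cytokines, and averaged 7.11 ± 0.29 in AIRmax pristane against 6.39 ± 0.15 in AIRmax control footpads, and 6.83 ± 0.10 in AIRmin pristane against 6.23 ± 0.10 in AIRmin control footpads. Its differences of 0.72 (adjusted p = 0.0986) and 0.60 (adjusted p = 0.0513) did not pass, and its pristane and control arrays did not overlap in either line. The difference of the 2 responses was 0.12 (adjusted p = 0.937).

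Downstream, all 30 listed NF-kappaB target genes were measured. After pristane limma called 4 higher in AIRmax, against 0.140% of all genes, and none in AIRmin. It called none lower in either line. At an unadjusted p under 0.05, 15 were higher and 2 lower in AIRmax (7.54% and 6.90% of all genes). SAM called 10 higher and 1 lower there (0.838% and 2.56%). In AIRmin 1 was higher and 3 lower at an unadjusted p under 0.05, where 5.12% of all genes were higher and 7.27% lower. SAM called 1 lower there, with 1.72% of all genes. Between the pristane groups limma called 6 higher and none lower in AIRmax, where 0.853% of all genes were higher. Saa3, an acute-phase protein of inflamed tissue, had signals of 8.19, 8.74, 7.69 and 9.12 in AIRmax pristane footpads, against 4.19, 3.97, 3.72 and 4.67 in AIRmax control footpads. It stood at 3.56 to 4.39 in AIRmin pristane and 3.63 to 4.17 in AIRmin control footpads, in or near the range of absent transcripts, so its difference of 4.30 in AIRmax (adjusted p = 0.0024) is not an exact size. Tnfaip6, which encodes the matrix protein TSG-6, averaged 8.28 ± 0.30 in AIRmax pristane against 6.01 ± 0.51 in AIRmax control footpads and was higher by 2.28 (adjusted p = 0.019). The neutrophil chemokine Cxcl2 (1.87, adjusted p = 0.019) and the inducible nitric oxide synthase Nos2 (1.21, adjusted p = 0.019) also passed, with the AIRmax control signal of Cxcl2 near that of absent transcripts.

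Between the pristane groups the monocyte chemokine Ccl2 (1.74, adjusted p = 0.0321) and the adhesion molecule Icam1 (0.87, adjusted p = 0.0329) were added to these 4. Of the 30 targets 29 had a difference above 0, against 49.1% of all genes, and their median was 0.53, against -0.01 for all genes. The response differed between the lines for 4 targets, where limma called 0.171% of all genes. These were Saa3 by 4.21 (adjusted p = 0.000147), Tnfaip6 by 2.89 (adjusted p = 0.0242), Ccl2 by 2.07 (adjusted p = 0.021) and Nos2 by 1.21 (adjusted p = 0.021). Not every target was higher: Ccl5, a chemokine of T cells, averaged 6.69 ± 0.36 in AIRmax pristane against 8.25 ± 0.74 in AIRmax control footpads, a difference of -1.55 that did not pass (adjusted p = 0.11). Il6 and Csf2 lay at the level of absent transcripts in all 4 groups. The study names several of these targets from the same arrays, Saa3 and Cxcl1 among them, so the list is not independent of it, and Lcn2 is also on the neutrophil list.

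**Figure D4:**
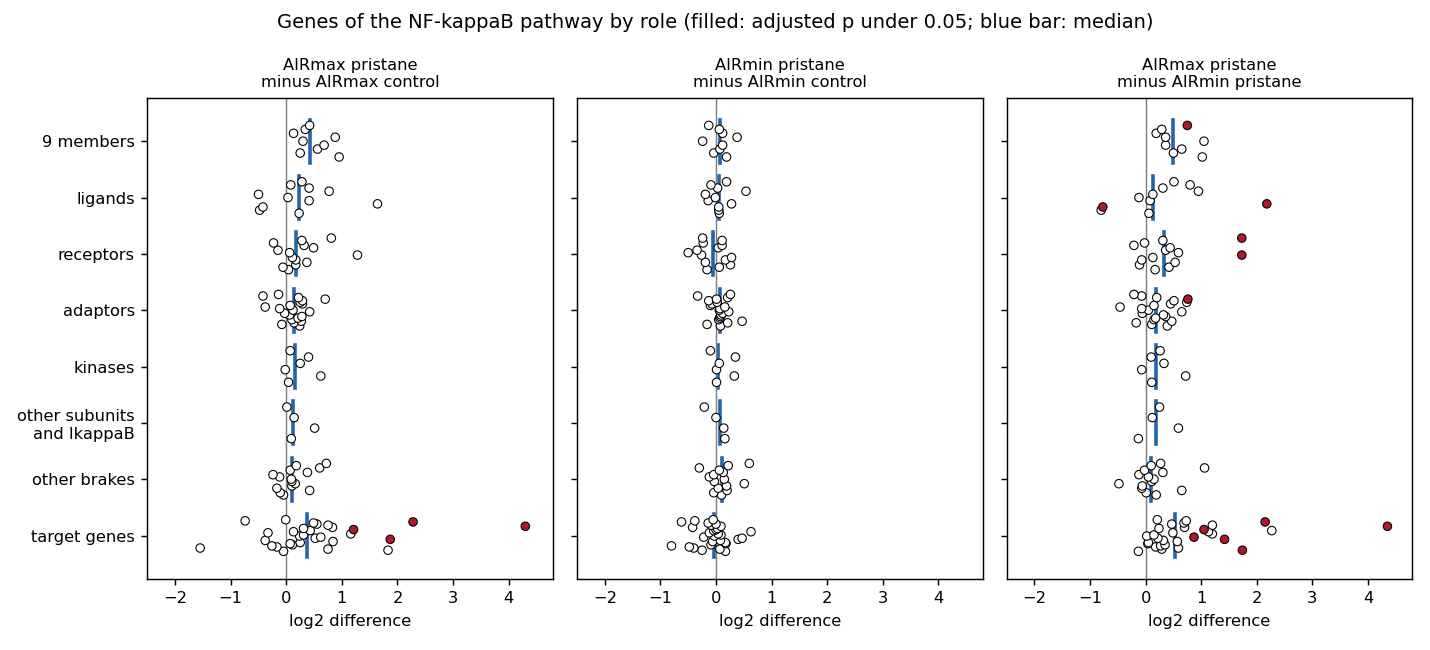
Log2 differences (horizontal axis) of single genes, grouped by their role in the NF-kappaB pathway (vertical axis), in the 2 pristane comparisons within a line and in the comparison of the pristane groups; filled points have an adjusted p under 0.05 and blue bars are medians. The medians of the 9 members are 0.42, 0.07 and 0.50, and those of the 30 target genes 0.37, -0.03 and 0.53.

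Genes with the most similar course over the 16 arrays were found by the Pearson correlation of log2 signals, given as a description only, since the arrays share their groups. Bcl3 was followed most closely by Pik3r5 (r = 0.973), Sbno2 (0.97) and Sema6b (0.968). For Tnfaip3 they were Slc15a3 (0.953), which the study also lists, Emilin1 (0.949) and Emilin2 (0.946). Nfkb2 had Ddah1 (0.918), Tnfsf15 (0.917) and Cxcl16 (0.908). Nfkbiz had Gpr31b (0.901) and then another gene of the family, Nfkbia (0.853), and the kinase gene Map3k8 (0.85).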

How the data were processed

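Total RNA of 16 footpads was measured on Mouse Gene 1.0 ST arrays, 4 per group, grouped by the labels. The authors deposited 1 normalized log2 signal for each probe set and array. By their titles the samples are RMA gene-level signals, while the submitters' notes name MAS5, both without a version in the sources used here. No probe set of the annotation names Nfkb1. Arrays have no counted depth, so their number and the spread among the 4 of a group limit the precision.

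Of 35556 probe sets, 21789 named 1 gene, and the brightest by its mean over 16 arrays stood for each of 19938 genes. Probe sets naming several genes (1621) or none (12146) were left out. Groups were compared with limma 3.58.1 (lmFit and eBayes) in R 4.3.3 on their 8 arrays, and the difference of the responses on all 16. Genes were called at a Benjamini-Hochberg adjusted p under 0.05, taken over all 19938. Every adjusted p in the text comes from limma. SAM, which the study used on standardized values, was written anew from its description (all 70 relabellings, false discovery rate 0.05). Here it was run on the deposited values of 1 probe set per gene, not standardized, so its calls are not a repeat of the study's. The fits were tested on simulated data. Alternatives were sex or the skeletal muscle score as covariate, all 16 arrays in 1 fit, quantile normalization, standardized arrays, a trended robust prior, averaged probe sets per gene, bright genes only (above the median), the 4 precursor-rich arrays left out, each array left out, and SAM.

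The members, lists and alternatives were chosen with earlier results of these data known. Named were all members, from each pathway and target list the genes called or with the smallest p, and the 3 genes most correlated with Tnfaip3, Bcl3, Nfkb2 and Nfkbiz. Promoters came from RefSeq (GRCm38.p6). Tables and figures were made with Python 3.11.15, numpy 2.4.6, pandas 2.3.3 and matplotlib 3.10.9.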

Additional observations from a re-analysis of the deposited data

Results flagged for a closer look

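Within groups of 4 arrays, 3 of the 36 sets of member signals held an array far from the others, where chance flags about 1 in 20 groups. Relb had 7.08 on array 119 of AIRmin pristane footpads, with the nearest array at 6.72. Bcl3 had 6.62 on array 116 of AIRmin control footpads, with the nearest at 6.34. Tnfaip3 had 7.23 on array 112 of AIRmax pristane footpads, with the nearest at 6.89. Array 112 is rich in granulocyte precursor signal, and without it Tnfaip3 differed by 0.66 between AIRmax pristane and AIRmin pristane footpads (adjusted p = 0.0793 from limma).

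The pristane response differed between the lines, AIRmax minus AIRmin, for 4 of the 30 listed target genes of NF-kappaB by limma, which called 0.171% of all genes. These were Saa3 by 4.21, Tnfaip6 by 2.89, Ccl2 by 2.07 and Nos2 by 1.21. Saa3 lay in or near the range of absent transcripts in AIRmin pristane, AIRmin control and AIRmax control footpads, so its value is not an exact size.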

How the results depend on the processing

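Of 828 values of members recomputed under an alternative, 785 kept their direction and side of the threshold, 12 became called, 9 lost the call and 22 changed sign, none of them called. The number of members called between AIRmax pristane and AIRmin pristane footpads (1) was 2 with standardized arrays, 3 with quantile normalization, 4 with all 16 arrays in 1 fit or by SAM, 0 with sex or the muscle score as covariate, and 0 to 2 with 1 array left out (2 without array 118, Bcl3 and Tnfaip3; 0 without 109, 111, 112, 117, 119 or 120). In AIRmax it was 0, and 2 with all 16 arrays or by SAM and 1 without the precursor-rich arrays, which also gave 1 for the difference of the responses. Pristane in AIRmin and the control groups gave 0 calls of members under every alternative run.

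Signs turned as follows. Nfkbie in AIRmax was -0.01 without the precursor-rich arrays. With the muscle score, Birc3 in AIRmin was 0.01, Nfkbia and Nfkbiz between the pristane groups -0.06 and -0.23, Relb between control groups 0.00 and Rel in the difference of responses -0.17. Relb between control groups was -0.01 with quantile normalization or without the precursor-rich arrays. With 1 array left out, Relb in AIRmin lay between -0.04 and 0.13, Birc3 in AIRmin between -0.13 and 0.09, Relb between control groups between -0.04 and 0.08, and Rel in the difference of responses between -0.07 and 0.07.

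No paired analysis was possible because the array numbers differ between all groups. With 4 arrays per group, differences larger than their spread could also go uncalled. Bcl3 in AIRmax differed by 0.95, with SDs of 0.35 after pristane and 0.31 in controls, and did not pass (adjusted p = 0.0986 from limma). An uncalled gene is therefore not shown to be unchanged. The cause of the changes was not tested.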
